A study of Rattus norvegicus with 6 samples.

Results

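Cell cycle and proliferation genes were followed in whole-organ cultures of rat pituitary, in 3 control samples and 3 samples given 10 nM GnRH (gonadotropin-releasing hormone). The list holds 42 genes. A gene was counted as measured where the array annotation named a probe set (a group of array probes for 1 transcript) with that gene and no other. This held for 41 genes, through 56 probe sets, out of 31042 probe sets and 14217 named genes on the array. For Rrm2, the small subunit of ribonucleotide reductase, the annotated probe set also names Rrm2l1, and no value is given. Where a gene had several, its brightest probe set on average was taken. Values are log2 intensities, a difference is GnRH minus control between the means of 3 arrays each, and its error is the standard error (SE) from limma, a linear model fitted to the whole table. The titles separate the groups by GnRH alone. The sources used here do not give strain, sex, age or how long treatment lasted. The labels do not tie samples to separate animals or cultures, and the p-values then cover only the spread among these samples, possibly technical.

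GnRH, a hypothalamic peptide, drives the gonadotropes of the pituitary to make and release the gonadotropins LH and FSH. Cells enter the cycle when D-type cyclins with Cdk4 or Cdk6, and then cyclin E with Cdk2, phosphorylate the retinoblastoma protein Rb1 and free E2F factors, which switch on genes of DNA synthesis. Cyclin A, cyclin B and Cdk1 then drive mitosis, and the CIP/KIP and INK4 inhibitors hold the kinases back. In the adult pituitary most hormone cells rarely divide, and the D-type cyclins, the inhibitors and the securin Pttg1 are known from pituitary growth and tumours.

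The arrays did not divide by group alone. Control 3 correlated with control 1 at 0.983 and with control 2 at 0.986 over all probe sets, against 0.994 between controls 1 and 2 and 0.988 to 0.991 with the GnRH arrays. Xist, the RNA of the inactive X chromosome, read 3.91 and 3.66 in controls 1 and 2 but 9.77 in control 3, beside 9.73, 9.16 and 9.49 under GnRH. Eif2s3y, a gene of the Y chromosome, ran the opposite way, at 6.48 and 6.56 in controls 1 and 2, 2.76 in control 3, then 2.42, 2.29 and 2.06 under GnRH. Every difference between GnRH and all 3 controls thus also compares arrays that differ in these sex-linked genes. Members are therefore also given against controls 1 and 2 and against control 3. Pituitary hormone genes were bright on every array, with Gh1 at 14.09 to 14.25 and Prl at 13.83 to 14.21. Both Gnrhr probe sets lay higher with GnRH, by 1.04 and 1.12. Of 12 pituitary markers measured, only Nr5a1 passed the test by limma. At an unadjusted p under 0.05 there were 4, or 33.3%, against 12.3% of all probe sets. The groups did not overlap in 5 of the 12, or 41.7%, against 16.7% of all probe sets. Of 38 markers of folliculostellate cells, endothelium, leukocytes and fibroblasts 0 passed by limma, and 10, or 26.3%, had an unadjusted p under 0.05. In such bulk samples fewer cells of a type and less RNA per cell cannot be told apart.

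None of the 41 members passed the test between GnRH and control cultures (limma, Benjamini-Hochberg adjusted p under 0.05 over all probe sets), where 0.464% of all probe sets passed. At an unadjusted p under 0.05 there were 5 members, or 12.2%, against 12.3% of all probe sets, with 1 higher and 4 lower, where 6.6% and 5.66% of all probe sets did so. The arrays of the groups did not overlap in 6 members, or 14.6%, against 16.7% of all probe sets. The median difference was 0.0057 over the members and -0.025 over all probe sets, and 21 members lay above 0 and 20 below, where 42.6% of all probe sets lay above 0. At an adjusted p under 0.10 there was 1 member, Ccnd3, against 1.1% of all probe sets. Differences ran from -0.32 for Mcm5 to 0.43 for Ccnd3. The 95% interval of the difference lay within 1.5-fold either way in 37 of 41 members, against 92.6% of all probe sets. The members outside that range were Ccnd3, Mcm5, Aurkb and Cdkn1b. The table has no detection calls, so an interval says nothing about a probe set that did not see its transcript. By mean value, 17 members lay below the median of all probe sets, and 8 of these were among the 14 mitosis genes.

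**Figure D1:**
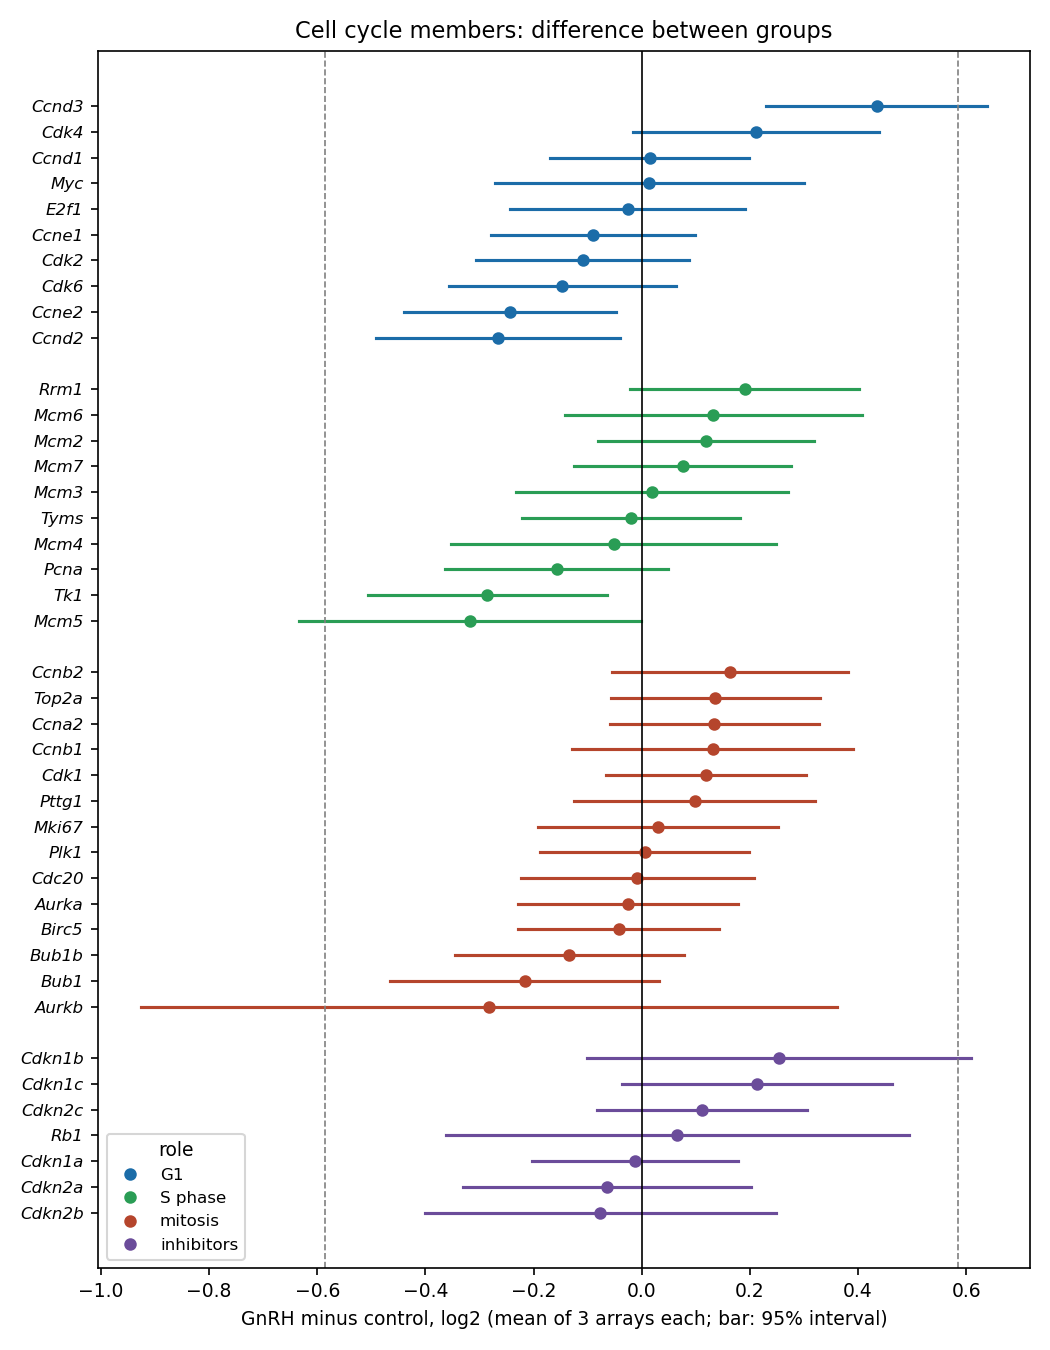
Difference between GnRH and control (log2, horizontal axis) for the 41 measured members, ordered within the roles G1, S phase, mitosis and inhibitors; points are differences of means of 3 arrays each, bars are 95% intervals from limma, and dashed lines mark 1.5-fold. Most bars cross 0 and lie inside the dashed lines, with Ccnd3 at 0.43 farthest to the right and the widest bar at Aurkb.

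The sequence around the start of each gene was searched for motifs known from cell cycle genes, and the shares are descriptions, with no test between roles. Windows from 250 bases before to 50 bases after the start (RefSeq, build GRCr8) were matched by symbol for 31 of the 42 members and searched on both strands. TTTGAA, the core of the cell cycle genes homology region, stood in 9 of 12 mitosis windows (75%) and in 18.3% of all 33469 windows. CCAAT, the box bound by NF-Y, stood in 9 of 12 mitosis windows, 6 of 9 S phase windows (66.7%) and 2 of 4 G1 windows, against 37.5% of all. The 3 E2F sequences searched were TTTCCCGC, TTTGGCGC and TTTCGCGC, and at least 1 of them stood in 6 of 9 S phase windows (66.7%), in 1 of 12 mitosis windows and in 1.72% of all. TTTGGCGC and TTTCGCGC can overlap on opposite strands, as they do in Mcm5 and Mcm6. The E-box CACGTG, the kind of site bound by Myc, stood in 2 of the 31, namely Cdk4 and Mcm2, or 6.45%, against 6.42% of all. A match describes letters and is not a tested site.

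The windows that follow show these layouts for Ccnb2 and Top2a, which rank after Bub1 by p-value among the mitosis genes though none passed, and for Mcm5 and Ccnd3, the members with the largest differences either way, which were chosen after their values were seen. Only the 250 bases before the start are printed, from 5′ to 3′ on the strand of the gene, with matches in capitals (ATTGG and TTCAAA are CCAAT and TTTGAA read from the other strand).
Ccnb2, chr8:79981659-79981908, minus strand: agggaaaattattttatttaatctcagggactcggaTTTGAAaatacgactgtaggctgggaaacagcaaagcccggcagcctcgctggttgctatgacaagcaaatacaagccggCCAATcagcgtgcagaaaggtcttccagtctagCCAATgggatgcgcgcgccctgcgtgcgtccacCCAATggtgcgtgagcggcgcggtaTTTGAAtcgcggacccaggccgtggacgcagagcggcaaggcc
Top2a, chr10:84473094-84473343, minus strand: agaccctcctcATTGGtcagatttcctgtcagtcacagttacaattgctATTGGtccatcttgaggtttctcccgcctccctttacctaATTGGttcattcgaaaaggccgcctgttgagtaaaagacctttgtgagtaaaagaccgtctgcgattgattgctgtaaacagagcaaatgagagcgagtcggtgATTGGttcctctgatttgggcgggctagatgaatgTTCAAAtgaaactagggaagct
Mcm5, chr19:13488563-13488812, plus strand: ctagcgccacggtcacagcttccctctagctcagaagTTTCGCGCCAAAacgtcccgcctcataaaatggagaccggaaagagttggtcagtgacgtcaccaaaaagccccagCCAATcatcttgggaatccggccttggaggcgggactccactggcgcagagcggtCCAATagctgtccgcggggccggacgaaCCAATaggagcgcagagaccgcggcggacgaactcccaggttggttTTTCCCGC
Ccnd3, chr9:20897876-20898125, minus strand: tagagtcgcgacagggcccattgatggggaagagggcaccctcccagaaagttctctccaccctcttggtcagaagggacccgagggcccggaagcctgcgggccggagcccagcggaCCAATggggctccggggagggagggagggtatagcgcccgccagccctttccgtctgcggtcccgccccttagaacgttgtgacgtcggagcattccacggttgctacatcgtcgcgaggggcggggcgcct

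In Ccnb2, 3 CCAAT boxes stand upstream of a TTTGAA at -43 to -38, counted from the start. Another TTTGAA, at -214 to -209, lies upstream of these boxes. Top2a has its TTTGAA match at -22 to -17. Mcm5 has no TTTGAA match, and its E2F matches lie at -213 to -206, -209 to -202 and -8 to -1. Ccnd3 has only a CCAAT, at -132 to -128. The Bub1 window held none of these letters. The differences of the 8 mitosis members with both TTTGAA and CCAAT (Birc5, Ccnb2, Cdc20, Cdk1, Mki67, Plk1, Pttg1 and Top2a) ran from -0.04 to 0.16, and 0 of them passed the test. Those of the 6 S phase members with an E2F match (Mcm2, Mcm3, Mcm5, Mcm6, Mcm7 and Tyms) ran from -0.32 to 0.13, and 0 passed.

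**Figure D2:**
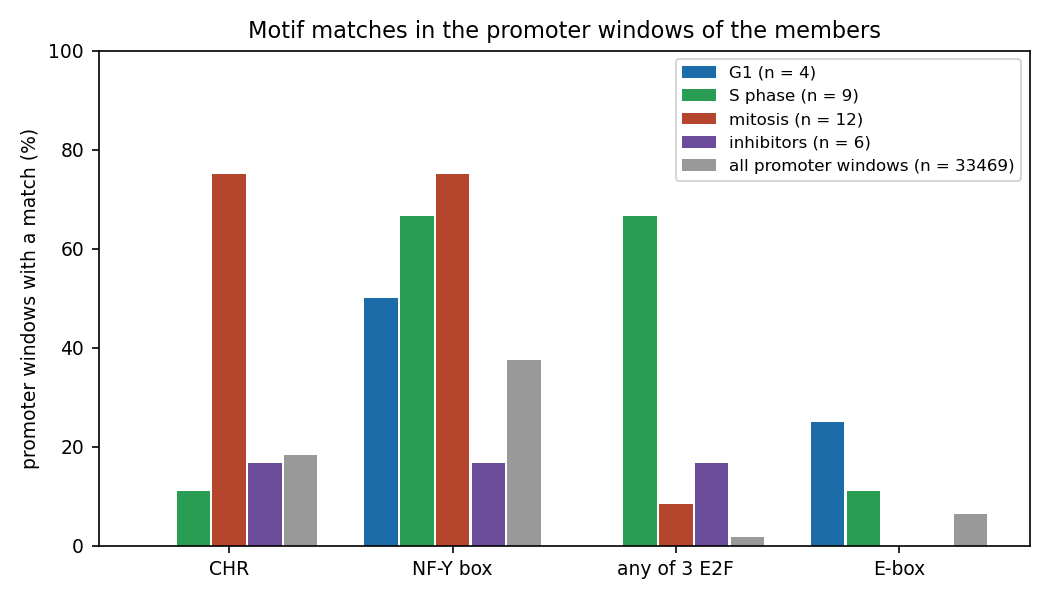
Share of promoter windows (%, vertical axis) that hold each motif on either strand, for members by role and for all windows. The mitosis windows stand at 75% for TTTGAA (CHR) against 18.3% of all, and S phase windows at 66.7% for the E2F sequences against 1.72%.

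Among the genes that carry cells through G1, the D-type cyclins did not move alike, and 0 of 10 passed the test. Cyclin D3 (Ccnd3) came nearest, with 8.09, 8.06 and 8.03 in controls and 8.41, 8.64 and 8.43 with GnRH. All GnRH arrays lay above all controls, control 3 included. The difference was 0.43 ± 0.09 (SE), or 1.35-fold, with a 95% interval of 0.23 to 0.64 (limma adjusted p = 0.0835). It was 0.42 against controls 1 and 2 and 0.47 against control 3. Over all 17 alternatives the difference stayed between 0.36 and 0.48, with adjusted p from 0.0105 to 0.36. It passed without control 3 and under array weights, where control 3 counted least (0.298, against 0.749 to 2.72 for the others).

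Cyclin D2 (Ccnd2) read 9.35, 9.17 and 9.11 in controls and 8.86, 8.88 and 9.09 with GnRH. The groups did not overlap, though GnRH 3 lay just under control 3. The difference was -0.27 ± 0.10 (limma adjusted p = 0.329), and it was below 0 in each of 17 alternatives without passing in any. Cyclin D1 (Ccnd1), the D-type cyclin most often linked to growth factor signals, read 7.44, 7.49 and 7.48 against 7.44, 7.55 and 7.46, so the groups overlapped closely. Its difference was 0.01 ± 0.08, with an interval of -0.17 to 0.20 and a sign that turned under quantile normalization and cyclic loess (limma adjusted p = 0.959). Its dimmer probe sets gave -0.16 and -0.11, also overlapping. Within each array, Ccnd3 minus Ccnd2 was -1.26, -1.12 and -1.09 in controls and -0.46, -0.24 and -0.67 with GnRH. The pair was chosen for its opposite differences, so this is a description.

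Cyclin E2 (Ccne2), a partner of Cdk2 at the entry to S phase, read 5.16, 5.20 and 5.08 in controls and 5.01, 4.86 and 4.84 with GnRH. All GnRH values were lower, by -0.24 ± 0.09 (limma adjusted p = 0.306). Its dimmer probe set did not show this, with a difference of -0.01. Myc, the growth-promoting transcription factor, read 7.26, 7.39 and 7.66 against 7.59, 7.23 and 7.53, fully overlapping, with a difference of 0.01 ± 0.13 whose sign turned under quantile normalization and cyclic loess. The kinase Cdk4 had a difference of 0.21 ± 0.10 (limma adjusted p = 0.442). Against controls 1 and 2 the Cdk4 difference was 0.30 and against control 3 it was 0.04. The remaining G1 genes were the kinases Cdk6 (-0.15) and Cdk2 (-0.11, with 0.21 on its dimmer probe set), cyclin E1 (Ccne1, -0.09) and the transcription factor E2f1 (-0.03). Their limma adjusted p-values ran from 0.561 to 0.937.

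**Figure D3:**
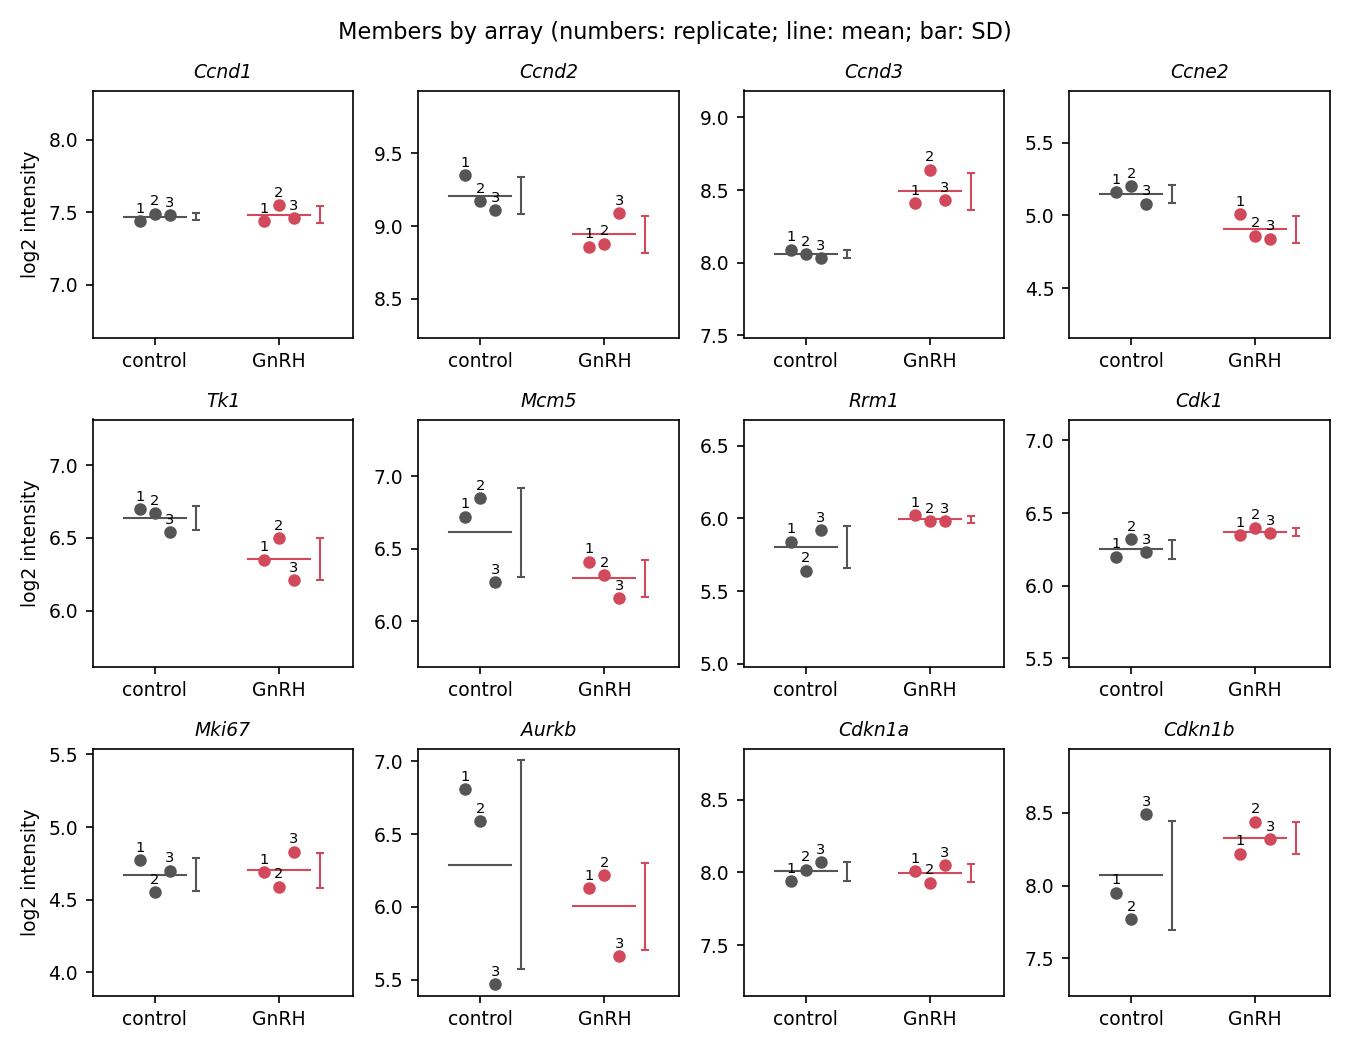
Log2 intensity (vertical axis, spanning the same number of log2 units in each panel) of 12 members by array, with control in grey, GnRH in red, replicate numbers beside the points, a line at the mean and a bar for the SD (n = 3). Ccnd3 shows the clearest gap between groups, while in Mcm5, Aurkb and Cdkn1b control 3 stands away from controls 1 and 2.

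Genes of DNA replication showed no common shift, with 5 of 10 above 0, 5 below and 0 past the test. Thymidine kinase 1 (Tk1), which salvages thymidine for DNA synthesis, read 6.70, 6.67 and 6.54 in controls and 6.35, 6.50 and 6.21 with GnRH. The groups did not overlap, and the difference was -0.29 ± 0.10 (limma adjusted p = 0.291). The other Tk1 probe sets gave -0.02 and 0.02, with overlapping groups. Mcm5, a subunit of the MCM2-7 replicative helicase, read 6.72, 6.85 and 6.27 against 6.41, 6.32 and 6.16. Control 3 lay among the GnRH arrays. The Mcm5 difference of -0.32 ± 0.14 (limma adjusted p = 0.404) was -0.49 against controls 1 and 2 and 0.03 against control 3.

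The large subunit of ribonucleotide reductase, Rrm1, which makes deoxynucleotides, read 5.84, 5.64 and 5.92 in controls and 6.02, 5.98 and 5.98 with GnRH. The GnRH arrays were tightly grouped just above the highest control, with a difference of 0.19 ± 0.10 (limma adjusted p = 0.456). The other helicase subunits lay on either side of 0, at 0.12 for Mcm2, 0.02 for Mcm3, -0.05 for Mcm4, 0.13 for Mcm6 and 0.08 for Mcm7. Pcna, the sliding clamp of DNA polymerase, had -0.16, and Tyms, the enzyme that makes thymidylate, had -0.02. The limma adjusted p-values of these 7 genes ran from 0.524 to 0.961.

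Markers of dividing cells showed no common shift. Of the 14 mitosis genes 0 passed and 0 had an unadjusted p under 0.05 by limma, against 12.3% of all probe sets. Above 0 lay 8 and below it 6, and the median difference was 0.018. Regardless of sign, the median size of the difference was 0.125, against 0.096 over all probe sets. Mki67, the marker of cycling cells known as Ki-67, read 4.77, 4.55 and 4.70 in controls and 4.69, 4.59 and 4.83 with GnRH. The groups overlapped throughout, with a difference of 0.03 ± 0.10 and an interval of -0.19 to 0.25 (limma adjusted p = 0.926). Its probe set was dim, at the 20.2 percentile of mean values. Cdk1, the kinase that starts mitosis, read 6.20, 6.32 and 6.23 against 6.35, 6.40 and 6.36, the sole mitosis gene whose groups did not overlap. Its difference was 0.12 ± 0.08, or 1.09-fold, and the interval of -0.07 to 0.30 includes 0 (limma adjusted p = 0.595).

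None of the cyclins that work with Cdk1 passed the test. Cyclin B2 (Ccnb2) read 5.54, 5.73 and 5.79 against 5.76, 5.85 and 5.94, a difference of 0.16 ± 0.10 with overlap (limma adjusted p = 0.532). Cyclin B1 (Ccnb1) had 0.13, with 0.09 on its dimmer probe set, and cyclin A2 (Ccna2) 0.13. Against controls 1 and 2 the differences were 0.22 for Ccnb2, 0.20 for Ccnb1 and 0.18 for Ccna2, and against control 3 they were 0.06, -0.01 and 0.05. The Ccna2 probe set was among the dimmest of the array, with a mean of 2.87 at the 1.12 percentile. Top2a, the topoisomerase that untangles chromosomes, read 5.38, 5.30 and 5.33 against 5.38, 5.56 and 5.48, overlapping at 5.38, with a difference of 0.14 ± 0.09 (limma adjusted p = 0.560), while its dimmer probe set had -0.11.

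Genes of the spindle checkpoint and the exit from mitosis were also spread about 0. Bub1, a checkpoint kinase, read 5.06, 5.09 and 5.06 in controls and 4.77, 5.11 and 4.69 with GnRH. GnRH 2 lay at the level of the controls and the other GnRH arrays below it, giving -0.22 ± 0.11 (limma adjusted p = 0.468). Pttg1, the securin that guards sister chromatids and was named for pituitary tumours, read 6.65, 6.61 and 6.49 against 6.54, 6.84 and 6.66. The groups overlapped, with a difference of 0.10 ± 0.10 and an interval of -0.13 to 0.32 (limma adjusted p = 0.728). The checkpoint protein Bub1b had -0.13, survivin (Birc5) -0.04, the mitotic kinases Aurka -0.03 and Plk1 0.01, and Cdc20, the activator of the anaphase-promoting complex, -0.01 on the brightest of 5 probe sets and -0.13 to 0.10 on the others. Aurkb, the kinase of the chromosomal passenger complex, varied most, with 6.81, 6.59 and 5.47 in controls and 6.13, 6.22 and 5.66 with GnRH. Control 3 lay below all other arrays and controls 1 and 2 above them. The Aurkb difference of -0.28 ± 0.29 (limma adjusted p = 0.727) was -0.69 against controls 1 and 2 and 0.54 against control 3.

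Among the brakes of the cycle 0 of 7 passed, and 0 had an unadjusted p under 0.05 by limma, against 12.3% of all probe sets. The CIP/KIP inhibitor p21 (Cdkn1a) read 7.94, 8.02 and 8.07 in controls and 8.01, 7.93 and 8.05 with GnRH. The values overlapped closely, with a difference of -0.01 ± 0.09 and an interval of -0.20 to 0.18 (limma adjusted p = 0.968), and the sign turned when each array was centred on its median. Its dimmer probe set gave -0.23, with a wider spread. The inhibitor p27 (Cdkn1b), whose loss enlarges the pituitary in mice, read 7.95, 7.77 and 8.49 against 8.22, 8.44 and 8.32. Control 3 was the highest of all arrays and controls 1 and 2 the lowest, so the difference of 0.25 ± 0.16 (limma adjusted p = 0.554) was 0.46 against controls 1 and 2 and -0.16 against control 3. The dimmer Cdkn1b probe set, at the 19.6 percentile of mean values, did not show this. There control 3 was the lowest array, at 4.38, and the difference was 0.07. It was -0.05 against controls 1 and 2 and 0.30 against control 3.

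The inhibitor p57 (Cdkn1c) read 6.62, 6.67 and 6.33 in controls and 6.63, 6.89 and 6.74 with GnRH. Control 3 was the lowest array, and the difference of 0.21 ± 0.11 (limma adjusted p = 0.474) was 0.11 against controls 1 and 2 and 0.42 against control 3. The INK4 inhibitor p18 (Cdkn2c), which blocks Cdk4 and Cdk6, read 8.07, 7.90 and 7.97 against 8.15, 8.09 and 8.04, a difference of 0.11 ± 0.09 with overlap (limma adjusted p = 0.640). Its dimmer probe set gave -0.08, also with overlap. The other INK4 genes had -0.06 for Cdkn2a and -0.08 for Cdkn2b, and Rb1 itself had 0.07. Rb1 read 5.35, 5.69 and 6.27 in controls and 5.75, 5.74 and 6.02 with GnRH, again with control 3 highest, so that it stood at 0.32 against controls 1 and 2 and -0.43 against control 3.

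Several of these values turned on control 3. Control 3 lay over 0.5 from the mean of controls 1 and 2 in 4 of 41 members (Aurkb, Rb1, Cdkn1b and Mcm5), or 9.76%, against 5.0% of all probe sets. The difference had the same sign against controls 1 and 2 as against control 3 in 26 of 41 members (63.4%), against 54.4% of all probe sets. Without control 3, 4 members passed by limma, with Ccnd3 (0.42) and Cdkn1b (0.46) higher and Mcm5 (-0.49) and Aurkb (-0.69) lower, or 9.76% of members where 7.44% of all probe sets passed. These arrays set low Xist against high Xist. Among the 4 arrays at the high Xist level, with control 3 as the lone control assumed to vary like the others, 0 members passed by limma, where 0.854% of all probe sets did. At an unadjusted p under 0.05 there were 6 (Ccnd3, Cdkn1c and Aurkb higher; Pcna, Mcm4 and Rb1 lower), or 14.6%, against 11.1% of all probe sets. In that setting Mcm5 was at 0.03 and Cdkn1b at -0.16, while Ccnd3 was at 0.47. For Mcm5, Cdkn1b, Aurkb and Rb1 the treatment and the division of the arrays that Xist and Eif2s3y show cannot be told apart. In Mcm5 control 3 lay among the GnRH arrays. In Cdkn1b, Aurkb and Rb1 it lay beyond them, on the side away from controls 1 and 2, and the reason was not tested. For Cdkn1b the place of control 3 also depended on the probe set. On the dimmer one control 3 lay at -0.35 from the mean of controls 1 and 2, against 0.62 on the brightest.

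**Figure D4:**
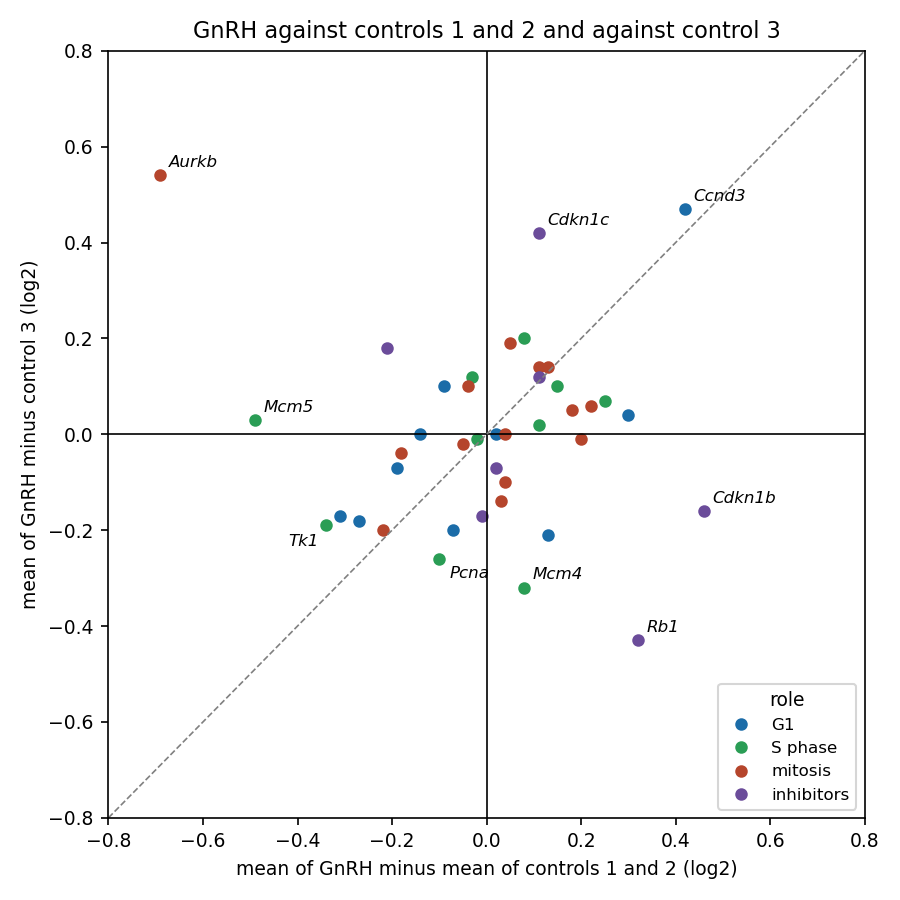
GnRH mean (3 arrays) less the mean of controls 1 and 2 (horizontal axis, log2) against the GnRH mean less control 3 (vertical axis, log2) for the 41 members, coloured by role, with a dashed line where both are equal. Ccnd3 lies near the line at 0.42 and 0.47, whereas Aurkb at -0.69 and 0.54 and Cdkn1b at 0.46 and -0.16 lie far from it.

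Markers of other cell types were set beside these values. For folliculostellate and stem-like cells, the non-endocrine cells among which pituitary progenitors are found, the summed linear intensity of the 7 of 10 markers measured was 2755, 2832 and 3543 in controls and 2692, 2155 and 2723 with GnRH. The gap between the groups came mainly from control 3 and GnRH 2, since the other arrays lay from 2692 to 2832. None of the 7 passed by limma, and 2 (Cdh1 and Anxa1, both lower) had an unadjusted p under 0.05, or 28.6%, against 12.3% of all probe sets. Below 0 lay 4 (Cdh1, Vim, Anxa1 and Lgals3) and above it 3 (Sox2 0.02, S100b 0.15 and Aldh1a2 0.07). All were brighter than the median of the array. The sum rests most on the brightest, Vim, Lgals3 and Anxa1. In control 3 these lay 0.42, 0.43 and 0.72 above controls 1 and 2, and Cdh1 0.17. Sox2, S100b and Aldh1a2 were there at -0.23, -0.22 and -0.27. Fibroblast and pericyte markers, all 10 measured, summed to 1529, 1590 and 1235 in controls and 1410, 1497 and 1151 with GnRH, overlapping. None of the 10 passed by limma, but 6 had an unadjusted p under 0.05, in both directions, or 60%, against 12.3% of all probe sets. The stromal genes Dcn (-0.63), Lum (-0.54), Pdgfra (-0.51) and Postn (-0.30) lay lower, and the collagen genes Col1a2 (0.61) and Col3a1 (0.39) higher. Dcn was at -0.85 against controls 1 and 2 and -0.20 against control 3, and Pdgfra at -0.73 and -0.07. In the same order Lum was at -0.59 and -0.45 and Postn at -0.28 and -0.35. The collagen genes were at 0.43 and 0.96 for Col1a2 and at 0.28 and 0.59 for Col3a1. The part of these cell types in the values of the cell cycle genes was not tested. Leukocyte markers summed to 1791 to 2127 in controls and 1826 to 2140 with GnRH, with Ptprc, the pan-leukocyte marker, dimmest at 3.78 to 4.46. Endothelial markers, 9 of 10 measured, summed to 1267, 1217 and 1166 in controls and 1286, 1435 and 1305 with GnRH, without overlap. Of these 9, 1 had an unadjusted p under 0.05 by limma (Plvap, 0.40), or 11.1%, against 12.3% of all probe sets. Plvap was at 0.26 against controls 1 and 2 and 0.68 against control 3. It was the brightest of the 9, so it weighed most in the sum. No other of the 9 had groups without overlap, which makes 11.1%, against 16.7% of all probe sets.

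A further 107 cell cycle genes covered replication licensing, the E2F and MYC network, checkpoints, kinesins and condensins. Like the members, they were chosen with earlier results of these data known. Of the 91 measured, 0 passed the test by limma. Above 0 lay 57 and below it 34, where 42.6% of all probe sets lay above 0. These counts were not split by control. The median difference was 0.031, against -0.025 over all probe sets. At an unadjusted p under 0.05 there were 7, or 7.69% against 12.3% of all probe sets, with 6 higher and 1 lower. Against controls 1 and 2, then against control 3, Prim1 was at 0.68 and 0.21, Tfdp1 at 0.51 and 0.05, and Cdc25b at 0.61 and 0.06. Likewise Mxd4 was at 0.39 and 0.46, Tob1 at 0.32 and 0.35, and Mycn at 0.17 and 0.40. Incenp, the lower gene, was at -0.26 and -0.29. The 4 with the smallest p-values all lay higher. Mxd4, a MAX partner that opposes Myc, read 6.98, 6.97 and 6.90 in controls and 7.38, 7.37 and 7.34 with GnRH. The groups were tight and far apart, with a difference of 0.41 ± 0.08 (limma adjusted p = 0.0640). Mxd4 passed under 5 of 17 alternatives, among them those without dim probe sets, without control 3 and with probe sets averaged by gene.

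Tob1, an antiproliferative protein of the BTG family, read 7.47, 7.60 and 7.50 against 7.75, 7.83 and 7.97, a difference of 0.33 ± 0.09 without overlap (limma adjusted p = 0.192). Prim1, the catalytic subunit of DNA primase, read 6.04, 6.21 and 6.60 against 6.86, 6.65 and 6.92, with control 3 just below the GnRH arrays and 0.53 ± 0.14 between the groups (limma adjusted p = 0.160). Tfdp1, the partner that E2F factors need to bind DNA, read 7.48, 7.57 and 7.98 against 7.90, 8.10 and 8.10. There control 3 lay within the GnRH arrays, and the difference was 0.36 ± 0.13 (limma adjusted p = 0.318).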

How the data were processed

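One array per sample was analysed. The deposited values are intensities on a linear scale, which the authors obtained by RMA, per the submitters' processing notes. Software, version and filters are not stated in the sources used here. Intensities were turned into log2 values without a pseudocount. Probe sets were named from the array annotation, and symbols were brought up to date by gene identifier with the GRCr8 table. The group comparison used lmFit and eBayes of limma 3.58.1 under R 4.3.3 (2-sided, no covariate, no filter), with Benjamini-Hochberg adjustment over all 31042 probe sets. The test was checked on simulated data, where 29 of 50 log2 changes of 0.58, 48 of 50 of 1 and 50 of 50 of 1.5 were recovered. Changes smaller than 0.58, the size of those seen in the members, were not simulated. The precision is limited by 3 arrays per group. An exact permutation test of 3 against 3 cannot go below p = 0.1 and was not used. The members and lists were chosen with earlier results of these data known. Values by array are given for Mki67, Cdk1, Ccnd1, Cdkn1a, Myc and Pttg1, members with an unadjusted p under 0.05, the 3 smallest p-values of each role and the 4 smallest of the other cell cycle genes; those of Aurkb and Rb1 were added after their values were seen.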

Additional observations from a re-analysis of the deposited data

How the results depend on the processing

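With 6 arrays kept and equal weights, 0 of the members tested passed by limma at an adjusted p under 0.05 under each scaling, variance, filter and probe set alternative (24 members were left without dim probe sets), with 2 to 6 at an unadjusted p under 0.05. In the main comparison 1 member (Ccnd3) had a limma adjusted p under 0.10. With quantile normalization and cyclic loess the limma adjusted p of Ccnd3 was 0.19 and 0.18. Array weights let 5 pass (Ccnd3, Mcm5, Tk1, Rrm1 and Cdkn1b; 12.2%, against 9.73% of all probe sets), with 6 other cell cycle genes and 3020 probe sets in all. Leaving out 1 array gave 0 to 4 members, 0 to 8 other cell cycle genes and 20 to 2309 probe sets, the highest each time without control 3. Over all probe sets 144 passed, against 90 with quantile normalization, 93 with cyclic loess, 74 with a pseudocount of 16 and 265 with the high-Xist arrays alone. Of the other cell cycle genes 1 passed (Mxd4) without dim probe sets, with the pseudocount and with gene means.

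The small role medians moved by more than the SD between arrays. S phase was at 0.022 with quantile normalization, 0.033 with cyclic loess, -0.069 without dim probe sets, 0.021 with the high-Xist arrays and -0.064 to 0.036 without 1 array. Mitosis was at 0.042 with quantile normalization, 0.053 with cyclic loess and 0.0036 to 0.046 without 1 array. G1 was at 0.014 without dim probe sets, inhibitors at -0.072 with the high-Xist arrays, and all members at -0.019 to 0.029 without 1 array. Signs turned in 6 of the 18 genes named by rule. Ccnd1 was at -0.027 with quantile normalization, -0.010 with cyclic loess, -0.083 with gene means and -0.019 to 0.035 without 1 array. Myc was at -0.016, -0.010 and, with the high-Xist arrays, -0.21, and ran from -0.074 to 0.13 without 1 array. Cdkn1a was at 0.0053 with median centring and -0.045 to 0.021 without 1 array, and Mki67 at -0.035 to 0.089 without 1 array. With the high-Xist arrays Mcm5 was at 0.027 and Cdkn1b at -0.16. The causes were not tested.

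The replicate numbers did not pair the arrays (correlations of same-numbered deviations 0.159, -0.0489 and 0.156; 3 of 6 arrays correlated best with their own number). With the replicate block, 0 members and 215 probe sets passed by limma.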
